A study of Rattus norvegicus with 12 samples.

Results

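Cadherins and protocadherins are cell surface proteins that bind their own kind on a neighbouring cell in the presence of calcium, and 63 genes of these families were examined in rat brain RNA. They are the rows of the deposited table whose symbol starts with Cdh and a digit or with Pcdh, apart from Cdh5 (a vascular cadherin), with a summed estimated count of at least 50 over all columns. Of 69 such rows, Cdh5 was left out by name and 5 were left out for a low sum (Cdh17, Cdh26, Pcdh12, Pcdhb2 and Pcdhb21), which left 19 cadherins and 44 protocadherins of 18800 genes in the table. All 63 passed the filter on low counts, so each was tested in each comparison.

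The samples were brain tissue of Sprague-Dawley rats in 3 groups. Control rats were restrained without electroacupuncture; their labels name no operation, although the deposited columns taken for them are named Sham. Model rats were restrained alike and carried the MCAO/R model (middle cerebral artery occlusion and reperfusion, in which flow through a main brain artery is stopped and restored). Electroacupuncture rats had MCAO/R, were restrained and received current through needles at the points Tianfu, Chize, Kongzui and Taiyuan of the Lung Meridian. The labels give no brain region, side, age or sex, nor whether each sample is another animal. The p-values hence measure only how these samples scatter, and part of that scatter may be technical. Of 11 deposited columns, 3 pairs within a group differed by only 1.34 to 1.4 times the sampling variance and were each counted as 1 sample, while other pairs within a group differed 4.75 to 26.5 times. The labels list 4 samples in every group, so that these pairs are repeats of 1 sample is inferred from the counts. The comparisons rest on 3 control samples (A, B and C), 2 model samples (A and B) and 3 electroacupuncture samples (A, B and C), with total counts between 9335913 and 23835724. Levels are given as counts-per-million (CPM) after TMM scaling, and they are not corrected for gene length, so levels of different genes are not compared.

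Classical cadherins join the membrane to actin through catenins and hold synapses and neuroepithelial junctions together. Type II members are expressed in different brain nuclei and cortical layers and take part in sorting neurons and their connections. Non-clustered protocadherins of the delta class bind weakly and signal to the cytoskeleton, while the clustered protocadherins stand in an alpha, a beta and a gamma array from which single neurons use different copies, a code for telling self from other. In the alpha and gamma arrays the variable first exons are joined to constant exons that all copies share, whereas a beta copy is a single exon of its own.

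All 33 clustered members held fractional counts, as arise when a read is divided between genes, in at least 5 of the 11 columns. Fractional counts stood in all 11 columns for 14 of the 17 gamma members, for 7 of the 15 beta members and for Pcdha4, the row under which RefSeq lists the whole alpha array. Of the 30 other members, 13 had a fractional count in any column (Cdh2, Cdh8, Cdh10, Cdh12, Cdh19, Cdh20, Cdh22, Cdh4, Cdh6, Pcdh7, Pcdh10, Pcdh15 and Pcdh17), which is 43.3% against 39.5% of all genes with a summed count of 50 or more. Of the 14 gamma members found by symbol in the RefSeq annotation of assembly GRCr8, 12 end at the same base, whereas the 15 beta members have 15 different ends.

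The paired columns of model A, model B and electroacupuncture B measured how stable each copy's value is. Pcdhga1 had an estimated count of 548.4 in the first column of electroacupuncture B and 0 in the second, and 0 and 57.7 in the columns of model A. In the columns of model B it had 1017 and 304.9, a 3.57-fold difference after scaling to column totals. Pcdhga9 had 0 and 40.6 in electroacupuncture B, and Pcdhga10 had 165.8 and 39.1 in the columns of model A, a 4.17-fold difference after that scaling. These gaps lie far outside counting error, with squared differences of 40.6 to 548.7 times the sampling variance.

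Among gamma members with 20 or more counts over the pair, the columns differed beyond a chi-square p of 0.05 for 6 of 15 (model A), 11 of 14 (model B) and 10 of 16 (electroacupuncture B). In the same pairs 10.2% to 11.3% of all genes did so. Beta members did so for 0 of 12, 1 of 11 and 1 of 15, and cadherins and other protocadherins for 1 of 29, 2 of 28 and 2 of 27. These tallies leave out copies with fewer counts, such as Pcdhb12 in model B, with 10.04 and 0. The sum of all gamma members was at 602.6 and 590.0 CPM (model A, scaled to column totals), 751 and 686.9 (model B) and 711 and 709.6 (electroacupuncture B). By fold these sums differed 1.021, 1.093 and 1.002 times, less than the copies named above. The gap in model B was still 26.1 times the sampling variance. On that scale single gamma copies there ran from 0.2 (Pcdhgb4) to 433.2 (Pcdhga1). Single gamma values below carry that limit.

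**Figure D1:**
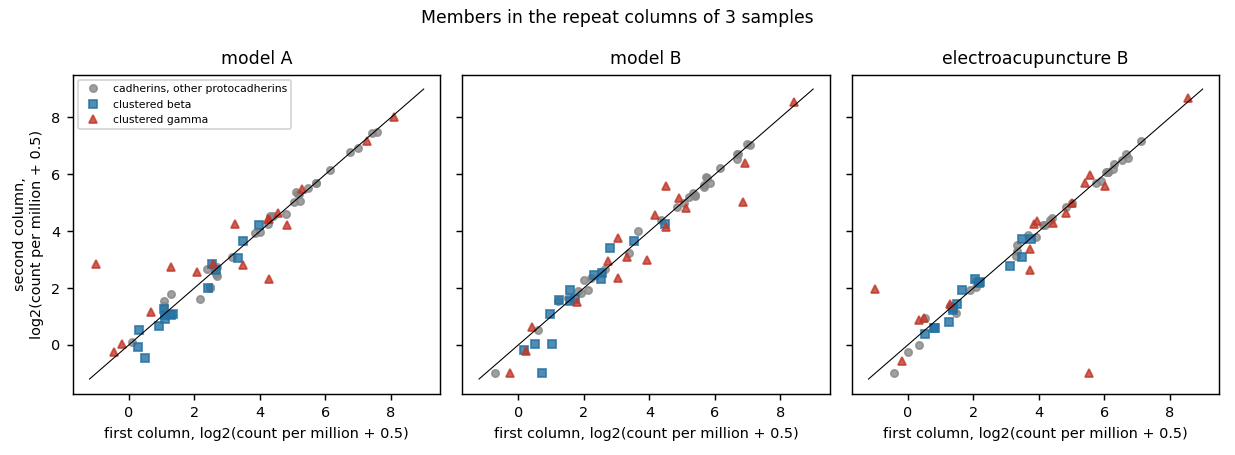
Each point is 1 of the 63 members in the repeat columns of model A, model B and electroacupuncture B, with log2(CPM + 0.5) of the first column on the x axis and of the second on the y axis; the line marks equality. Several gamma copies (triangles) leave the line, among them Pcdhga1 with 548.4 counts in one column of electroacupuncture B and 0 in the other, while Pcdhga7 lies close to it; of the beta copies (squares), Pcdhb12 in model B (10.04 and 0 counts) and Pcdhb8 in model A (8 and 2 counts) leave it too.

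By array, gamma copies summed to 804.9, 669.6 and 674.8 CPM among controls, 559 and 717.4 CPM in model tissue and 727.6, 719.9 and 699.5 CPM after electroacupuncture. Model A was the lowest sample and model B lay inside the control range. Beta copies summed to between 60.6 CPM in model A and 78.9 CPM in control A, a range in which the 3 groups overlapped. Pcdha4, the alpha array, measured 125, 93.6 and 96.9 CPM among controls, 102 and 133 CPM in model tissue and 67.4, 104 and 90.9 CPM after electroacupuncture. Pcdhgc3, a C-type copy whose protein binds Axin1 in mice, took 44.7% of gamma reads in model A, the lowest share, and 62.8% in electroacupuncture C, the highest.

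Across the 8 samples the median member varied more than the median gene. The standard deviation of log2(CPM + 0.5) had a median of 0.43 over the 46 members that are no gamma copies and 0.58 over the 17 gamma copies, against 0.33 over all 15487 genes tested. Delta-1 protocadherins had a median of 0.67 and beta copies of 0.41. Among the cadherins Cdh2 (N-cadherin, of synapses and neural progenitors) varied least, at 0.23, from 104 CPM (model B) to 174 CPM (model A).

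**Figure D2:**
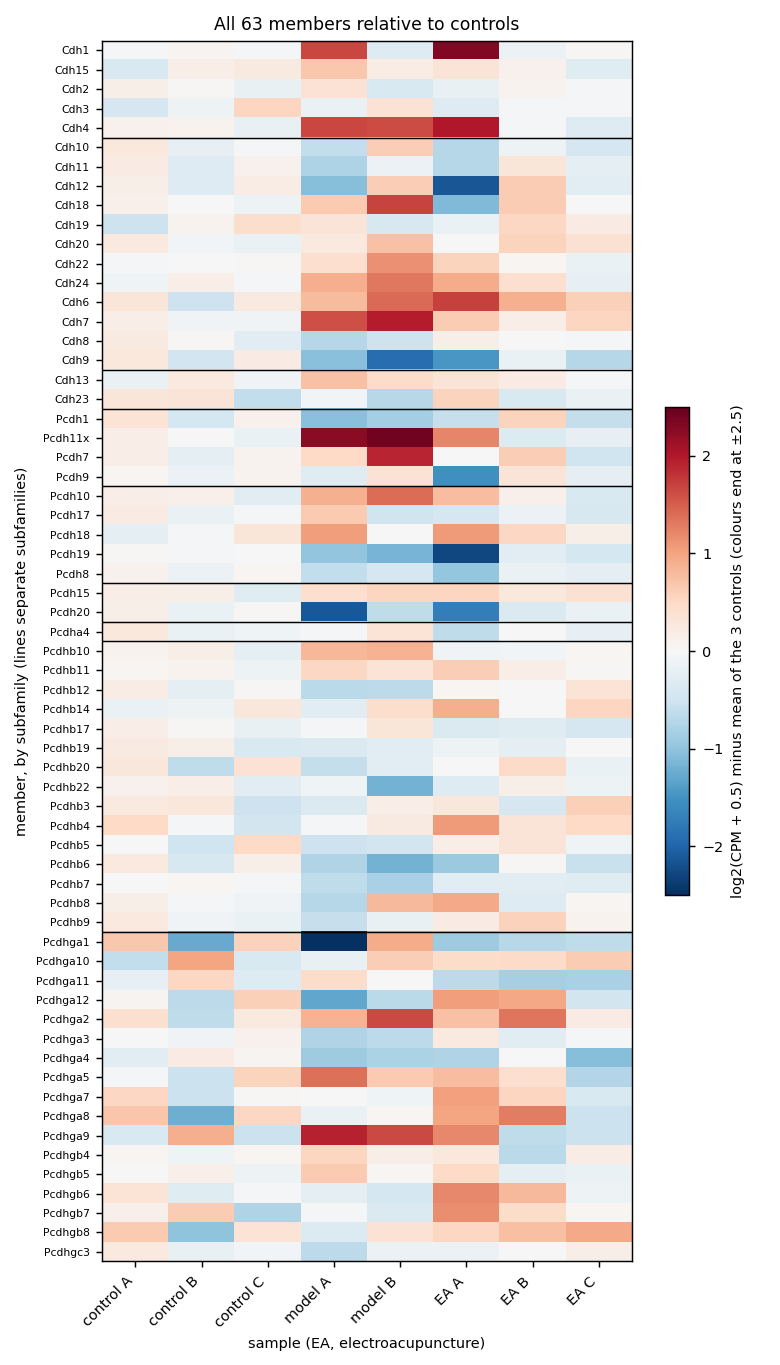
Rows are the 63 members by subfamily and columns the 8 samples; colour shows log2(CPM + 0.5) minus the mean of the 3 controls. Model A, model B and electroacupuncture A carry the strongest colours, for example in Pcdh11x (5.14, 5.8 and 2.26 CPM against 0.55 to 0.825 CPM among controls) and Pcdh20 (19.8, 56.3 and 25.9 CPM against 77.5 to 96 CPM).

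Model and control samples, whose labels differ in MCAO/R, were compared first. As no brain region is labelled, an effect of MCAO/R cannot be told apart from a difference in the tissue taken. No cadherin or protocadherin passed the edgeR quasi-likelihood test at a Benjamini-Hochberg adjusted p under 0.05 over all genes, and 1 gene of 15487 (0.00646%) did. DESeq2 on the same samples called 7 members (Cdh7, Cdh9, Cdh24, Pcdh10, Pcdh11x, Pcdhb7 and Pcdhb10), against 4.91% of all genes to which it gave an adjusted p. With every column as its own library edgeR called 9 members, against 7.37% of genes. At an unadjusted p under 0.05 edgeR had 13 of 63 members higher in the model, against 7.61% of all genes, and 6 lower, against 6.2%. Both directions together, these 19 members (30.2%, against 13.8% of genes) were 12 (19%, against 13.4%) without model B. Both model samples lay above every control for 18 members, against 18.2% of all genes, and below for 13, against 19.6%. The median log2 fold change was 0.07 over the members and 0.02 over all genes, while the median size of change regardless of sign was 0.58 and 0.30.

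The 2 members with the smallest p were higher in the model. Cdh7, a type II cadherin of subsets of neurons, measured 1.19, 0.909 and 0.916 CPM among controls (A, B and C, the order used throughout), 4.07 and 5.31 CPM in model tissue (A and B) and 1.82, 1.19 and 1.69 CPM after electroacupuncture (A, B and C). The model samples stood apart from the 6 others. The log2 fold change against control was 2.21 (SE 0.36, edgeR adjusted p = 0.107), a 4.62-fold difference.

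Pcdh11x, a delta-1 protocadherin encoded on the X chromosome, measured 0.825, 0.682 and 0.55 CPM among controls and 5.14 and 5.8 CPM in model tissue. Electroacupuncture A lay between at 2.26 CPM, and electroacupuncture B and C were at 0.425 and 0.527 CPM, below every control. The log2 fold change was 2.98 (SE 0.71, edgeR adjusted p = 0.172). In both repeat pairs of model columns its counts agreed closely, at 51 and 45 (model A) and 51 and 55 (model B). The columns of electroacupuncture B held only 6 and 4 counts. Its values in controls and in electroacupuncture B and C, all under 1 CPM, rest on few reads. Their order, and the size of the fold change, are hence uncertain.

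Cdh24, a type II cadherin, measured 14.7, 17.7 and 15.2 CPM among controls, 30.2 and 40.1 CPM in model tissue and 30.5, 21.5 and 13.7 CPM after electroacupuncture (log2 fold change for model against control 1.15, SE 0.31, edgeR adjusted p = 0.189). Pcdh10, a delta-2 protocadherin that takes part in synapse elimination in mice, measured 20.9, 20.2 and 15.2 CPM among controls, 35 and 49.7 CPM in model tissue and 32, 20.4 and 14.2 CPM after electroacupuncture (1.17, SE 0.34, adjusted p = 0.207). In both genes electroacupuncture A stood above every control and the other electroacupuncture samples.

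Other members above every control in both model samples differed in how evenly the model samples shared the difference. Cdh4 (R-cadherin) was even, at 10.8, 10.7 and 8.7 CPM among controls and 32.9 and 32 CPM in model tissue, and electroacupuncture A was highest of all at 41.7 CPM. Pcdh7, a delta-1 protocadherin, was uneven, at 38, 28.8 and 36.1 CPM among controls against 48.4 CPM (model A) and 129 CPM (model B), so that its log2 fold change of 1.37 was 0.49 without model B. Cdh13, the T-cadherin held to the membrane by a lipid anchor, measured 62.6, 84.2 and 66.8 CPM among controls and 117 and 97.6 CPM in model tissue (log2 fold change 0.59, SE 0.18, edgeR adjusted p = 0.235). Cdh6, Cdh18 and Cdh22, type II cadherins, also had both model samples above every control and an unadjusted p under 0.05, with log2 fold changes of 1.44, 1.301 and 0.85; that of Cdh18 was 0.67 without model B. Pcdh10, Cdh4, Pcdh7, Cdh6, Cdh18 and Cdh22 were named in this comparison after their values were seen.

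Type II cadherins pointed in both directions. Of the 12, 7 were higher in estimate and 5 lower, and 2 had both model samples below every control. Cdh8, which marks subsets of cortical and striatal neurons, measured 66.9, 58 and 47.4 CPM among controls, 34.7 and 39.3 CPM in model tissue and 62.6, 57.2 and 54.6 CPM after electroacupuncture (log2 fold change for model against control -0.63, SE 0.18, edgeR adjusted p = 0.196). All 3 electroacupuncture samples lay inside the control range. Cdh9, needed for synapses between dentate granule and CA3 neurons in mice, measured 44.1, 26.1 and 41.8 CPM among controls, 17.4 and 9.42 CPM in model tissue and 12.9, 32.2 and 21.9 CPM after electroacupuncture (-1.48, SE 0.45, adjusted p = 0.231). Cdh10, Cdh11, Cdh12 and Cdh19 overlapped between model and control, and for Cdh10 (20.3 and 48.2 CPM) and Cdh12 (4.02 and 14.0 CPM) model A lay below and model B above every control.

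Among the remaining non-clustered protocadherins, Pcdh8, Pcdh19, Pcdh20 and Pcdh1 had both model samples below every control, none at an unadjusted p under 0.05. Pcdh19, a delta-2 protocadherin whose human gene is mutated in an epilepsy, measured 84.5, 80.1 and 82.9 CPM among controls, 41.6 and 36.5 CPM in model tissue and 16.7, 68.8 and 60.3 CPM after electroacupuncture (log2 fold change for model against control -1.08, SE 0.51, edgeR adjusted p = 0.397). Controls agreed closely, and electroacupuncture A was lower than either model sample. Pcdh8 (arcadlin), induced by synaptic activity, measured 80.6, 67.5 and 77.1 CPM among controls, 48.5 and 55.9 CPM in model tissue and 38.1, 66.9 and 64 CPM after electroacupuncture. Pcdh9 and Pcdh17 overlapped between the groups, Pcdh9 with its lowest value of 27.8 CPM in electroacupuncture A and Pcdh17 with its highest of 161 CPM in model A.

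Beta copies pointed in both directions. Pcdhb7 measured 9.07, 9.44 and 8.7 CPM among controls, 5.63 and 4.93 CPM in model tissue and 7.37, 7.36 and 7.28 CPM after electroacupuncture (log2 fold change for model against control -0.78, SE 0.21, edgeR adjusted p = 0.188). The 3 groups did not overlap, and electroacupuncture lay between. Pcdhb10 measured 4.67, 4.89 and 3.67 CPM among controls, 8.14 and 8.38 CPM in model tissue and 4.08, 4.12 and 4.54 CPM after electroacupuncture (0.91, SE 0.25, adjusted p = 0.189). Its columns in model B were less alike than most, with 57 and 96 counts, a 1.57-fold difference after scaling to column totals. Of the 15 beta copies 6 were higher in estimate and 9 lower.

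The promoters of these copies are shown because the estimates of Pcdhb7 and Pcdhb10 had opposite signs while their promoters share a sequence. The windows run from 250 bases before to 50 bases after the annotated start (RefSeq, GRCr8, both on the plus strand), at chr18:29328804-29329103 for Pcdhb7 and chr18:29391610-29391909 for Pcdhb10, the latter inside the annotated span of its gene. Capitals mark the longest run that the windows have in common, GGTGGCGCTG, which was found by comparing them and holds the letters CGCT for which clustered protocadherin promoters are known.
Pcdhb7: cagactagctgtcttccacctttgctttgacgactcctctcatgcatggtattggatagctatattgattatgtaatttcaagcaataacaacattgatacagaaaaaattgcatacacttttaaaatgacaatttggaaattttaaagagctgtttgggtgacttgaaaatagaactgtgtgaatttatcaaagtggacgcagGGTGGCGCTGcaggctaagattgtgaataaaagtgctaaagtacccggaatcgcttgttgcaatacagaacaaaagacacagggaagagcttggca
Pcdhb10: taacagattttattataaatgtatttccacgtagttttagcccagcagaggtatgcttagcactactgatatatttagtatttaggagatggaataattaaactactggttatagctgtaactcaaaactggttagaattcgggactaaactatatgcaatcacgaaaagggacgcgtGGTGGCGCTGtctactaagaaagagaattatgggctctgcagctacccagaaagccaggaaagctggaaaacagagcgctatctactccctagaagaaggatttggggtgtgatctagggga

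The run starts 46 bases before the start in Pcdhb7 and 72 bases before it in Pcdhb10. Windows were listed for 48 members. On either strand the run occurred in 12 of 12 beta windows, in 0 of 13 gamma windows, in 0 of 22 windows of cadherins and non-clustered protocadherins and in 0.221% of all 33469 windows. The shorter CGCT, which the run contains, stood on either strand in 12 of 12 beta windows, 11 of 13 gamma windows, 17 of 22 windows of cadherins and non-clustered protocadherins (77.3%) and 60.9% of all windows. A match describes these letters and not a bound site.

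Gamma copies had 3 of 17 members at an unadjusted p under 0.05, against 13.8% of all genes. Pcdhga2 and Pcdhga9 were higher and Pcdhga3 lower in the model. Pcdhga3 measured 13.8, 13 and 14.9 CPM among controls, 8.04 and 8.65 CPM in model tissue and 16.6, 11.5 and 13.6 CPM after electroacupuncture (log2 fold change for model against control -0.74, SE 0.21, edgeR adjusted p = 0.208). Its repeat columns in model A differed 1.64-fold after that scaling. Pcdhga9 measured 2.2, 6.03 and 1.92 CPM among controls and 12.81 and 10.51 CPM in model tissue, with a 2.07-fold difference between the columns of model A. Pcdhga9 and Pcdhga2 were named in this comparison after their values were seen.

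**Figure D3:**
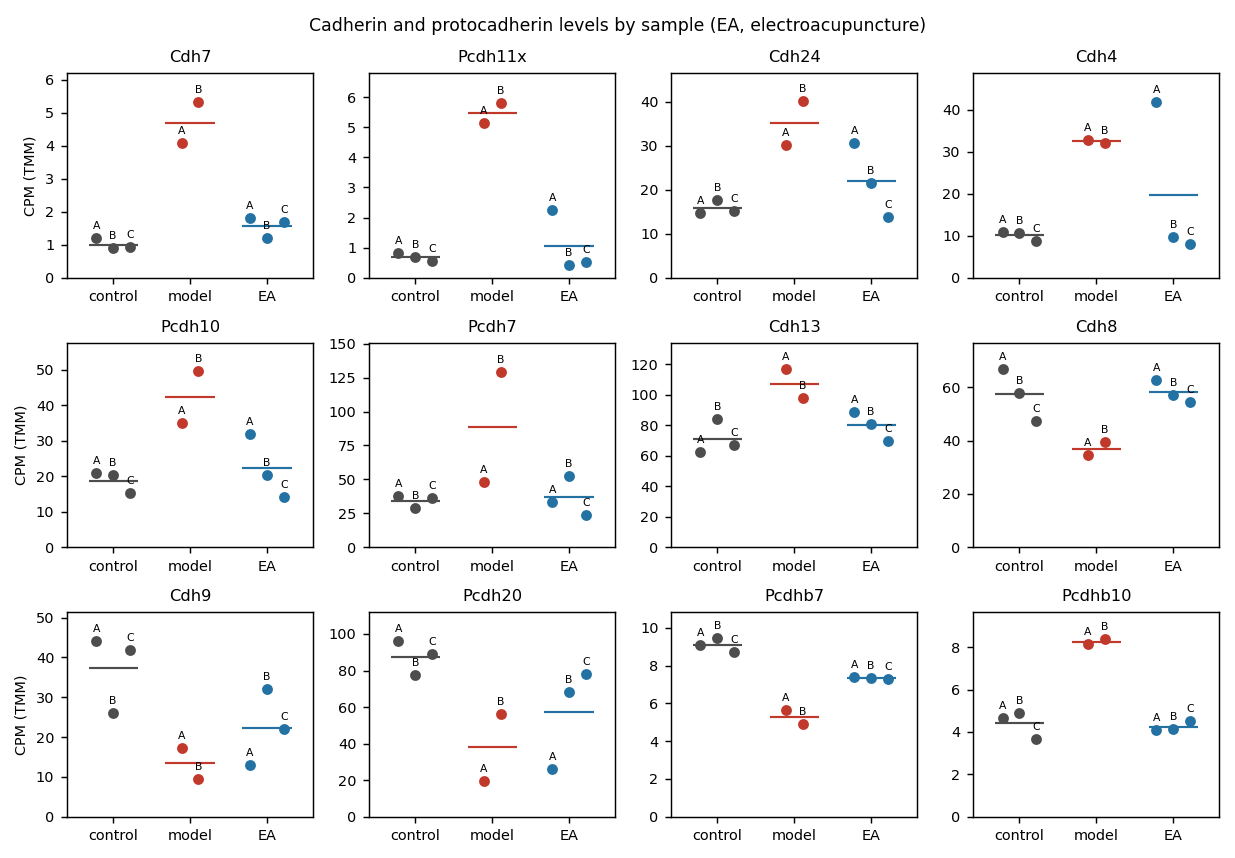
CPM of 12 members in each control, model and electroacupuncture (EA) sample, with letters naming the samples and bars the group means; each panel has its own axis from 0. Cdh7, Pcdh11x and Pcdhb10 show both model samples above the 6 others, Cdh8 shows them below, and Cdh4 shows electroacupuncture A at 41.7 CPM above the model.

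Levels of marker genes also differed between the samples. As the mean over a list of log2 differences from the controls' mean, the 16 hippocampal markers stood at -1.84 (model A), -1.78 (model B) and -1.97 (electroacupuncture A), against -0.11 to 0.07 in controls and -0.04 and -0.18 in electroacupuncture B and C. Summed, the list was at 1373 to 1569 CPM among controls, 461.4 and 498.3 CPM in model tissue and 348.2, 1327 and 1308 CPM after electroacupuncture. Within it Prox1, a marker of dentate granule neurons, measured 96.0, 70.8 and 62.7 CPM among controls, 6.38 and 3.83 CPM in model tissue and 9.80, 61.3 and 61.1 CPM after electroacupuncture. Not all of the list fell: of 14 genes tested, 12 were lower in estimate in the model and 2 higher. Npy1r measured 13.2, 18.1 and 15.7 CPM among controls and 15.5 and 31.4 CPM in model tissue. The list of 15 neocortical markers had values of 1.40 (model A) and 1.31 (model B), -0.14 to 0.17 in controls and 0.76, 0.49 and -0.09 with electroacupuncture. The 14 striatal markers lay at 2.07 and 0.46 in the model and at 4.70 in electroacupuncture A, against -0.31 to 0.23 in the other 5 samples. The part of region markers in the cadherin and protocadherin differences was not tested. With no brain region in the labels, group cannot be told apart from which part of the brain was taken. In bulk tissue, fewer cells of a type also cannot be told apart from less RNA per cell.

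Of the other cell types, the 12 pan-neuronal genes stood at -0.47 (model A), 0.18 (model B) and -1.16 (electroacupuncture A), against -0.04 to 0.08 in controls. The 14 microglial genes lay at 1.39 and 0.33 in the model and 1.78, 0.33 and 0.29 with electroacupuncture, against -0.15 to 0.19 in controls. Myelin genes lay at -0.30 and -1.16 in the model and at -0.21, 0.55 and 0.30 with electroacupuncture, against -0.38 to 0.37 in controls. The 10 endothelial genes in the table lay at -0.28 and 0.42 in the model and 1.21, 0.10 and 0.05 with electroacupuncture, against -0.34 to 0.67 in controls. Cdh1 (E-cadherin), an epithelial cadherin, was at 0.183, 0.227 and 0.183 CPM among controls and measured 1.72 CPM (model A), 0.0547 CPM (model B) and 2.95 CPM (electroacupuncture A). Choroid plexus and ependymal markers, from tissue that is epithelial, summed to 142.6, 62.8 and 1425 CPM in the controls. The sum was 118.4 and 105.3 CPM in the model and 270.3, 72.5 and 63.6 CPM with electroacupuncture. In control C, Ttr alone made up 1344 CPM of it. By mean log2 difference these markers stood at -0.03, -0.88 and 0.91 in controls. They lay at 0.08 and -0.61 in the model and at 0.90, -0.49 and -0.66 with electroacupuncture. Their part was not tested.

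Electroacupuncture and model samples, whose labels differ in the needling after MCAO/R, were compared next, with the same limit on brain region. No member passed the edgeR test, and 0% of all genes did, with 15 members at an unadjusted p under 0.05. DESeq2 called 4 members (Cdh7, Pcdh11x, Pcdhb10 and Pcdhga11), each lower with electroacupuncture, against 4.37% of genes. With every column as its own library edgeR called 9, against 10.9% of genes. At an unadjusted p under 0.05 edgeR had 6 of 63 higher, against 6.3% of all genes, and 9 lower, against 7.18%. The 15 members (23.8%, against 13.5% of genes) were 9 (14.3%, against 12%) without electroacupuncture C and 7 (11.1%, against 8.33%) with only the 2 groups compared. Every electroacupuncture sample lay above both model samples for 14 members, against 12.9% of genes, and below for 9, against 11.7%. Because the model samples also served in the first comparison, these values repeat part of it.

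Cdh7 had a log2 fold change of -1.59 against the model (SE 0.35, edgeR adjusted p = 0.150) and Pcdhb10 one of -0.96 (SE 0.25, adjusted p = 0.179). For Pcdhb10 all 3 electroacupuncture samples lay inside the control range, whereas for Cdh7 electroacupuncture A and C lay above it at 1.82 and 1.69 CPM. Pcdh11x had a log2 fold change of -2.37 (SE 0.68, adjusted p = 0.215), which was -3.52 without electroacupuncture A. Cdh8 had one of 0.65 (SE 0.18, adjusted p = 0.196) with no overlap, and Pcdhb12, a beta copy near 1 CPM, one of 1.26 (SE 0.44, adjusted p = 0.281), from 0.536 and 0.547 CPM in model tissue to 1.22, 1.15 and 1.58 CPM after electroacupuncture. The model values of Pcdhb12 rest on repeat columns with 6.33 and 4 counts (model A) and 10.04 and 0 counts (model B).

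Of the clustered copies, 22 of 33 were higher in estimate, against 53.4% of all genes, and of the cadherins 12 of 19 were lower, against 46.6%. By median log2 fold change the beta copies were at 0.49, the gamma copies at 0.39 and the cadherins at -0.21, against 0.03 over all genes. Beta copies were higher in estimate for 12 of 15. Every electroacupuncture sample lay above the model for 7 of the 15 and below it for 2, against the 12.9% and 11.7% of all genes. The beta sum overlapped nonetheless, at 60.6 and 69.7 CPM in model tissue and 70.8, 67.9 and 66.9 CPM after electroacupuncture. Among gamma copies Pcdhga11 measured 139 and 102 CPM in model tissue and 64.3, 56.5 and 57.8 CPM after electroacupuncture (log2 fold change -1.01, SE 0.27, edgeR adjusted p = 0.192), and its paired columns differed 1.06-fold, 1.44-fold and 1.36-fold after that scaling in model A, model B and electroacupuncture B. Pcdhga12 measured 3.8 and 6.13 CPM in model tissue and 21.5, 20.4 and 7.28 CPM after electroacupuncture, with a 3.19-fold difference between the columns of model A.

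Electroacupuncture A stood apart from B and C in where it lay. Of the 31 members with both model samples outside the control range, electroacupuncture A was nearer to the model mean than to the control mean on the log2 scale for 20, electroacupuncture B for 6 and electroacupuncture C for 7. Over all genes with model samples outside the control range the shares were 60.2%, 19.4% and 16.2%, close to the 64.5%, 19.4% and 22.6% of the members. Without electroacupuncture A the edgeR fit called 2 members against the model, Cdh4 (log2 fold change -1.87) and Pcdh11x, against 1.82% of all genes. Without it the shared estimate of spread also changed, and 5 members were called for model against control: Cdh4, Cdh7, Cdh24 and Pcdh11x higher and Pcdh19 lower, against 3.7% of genes. Electroacupuncture A is also the sample with the lowest hippocampal and highest striatal markers.

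**Figure D4:**
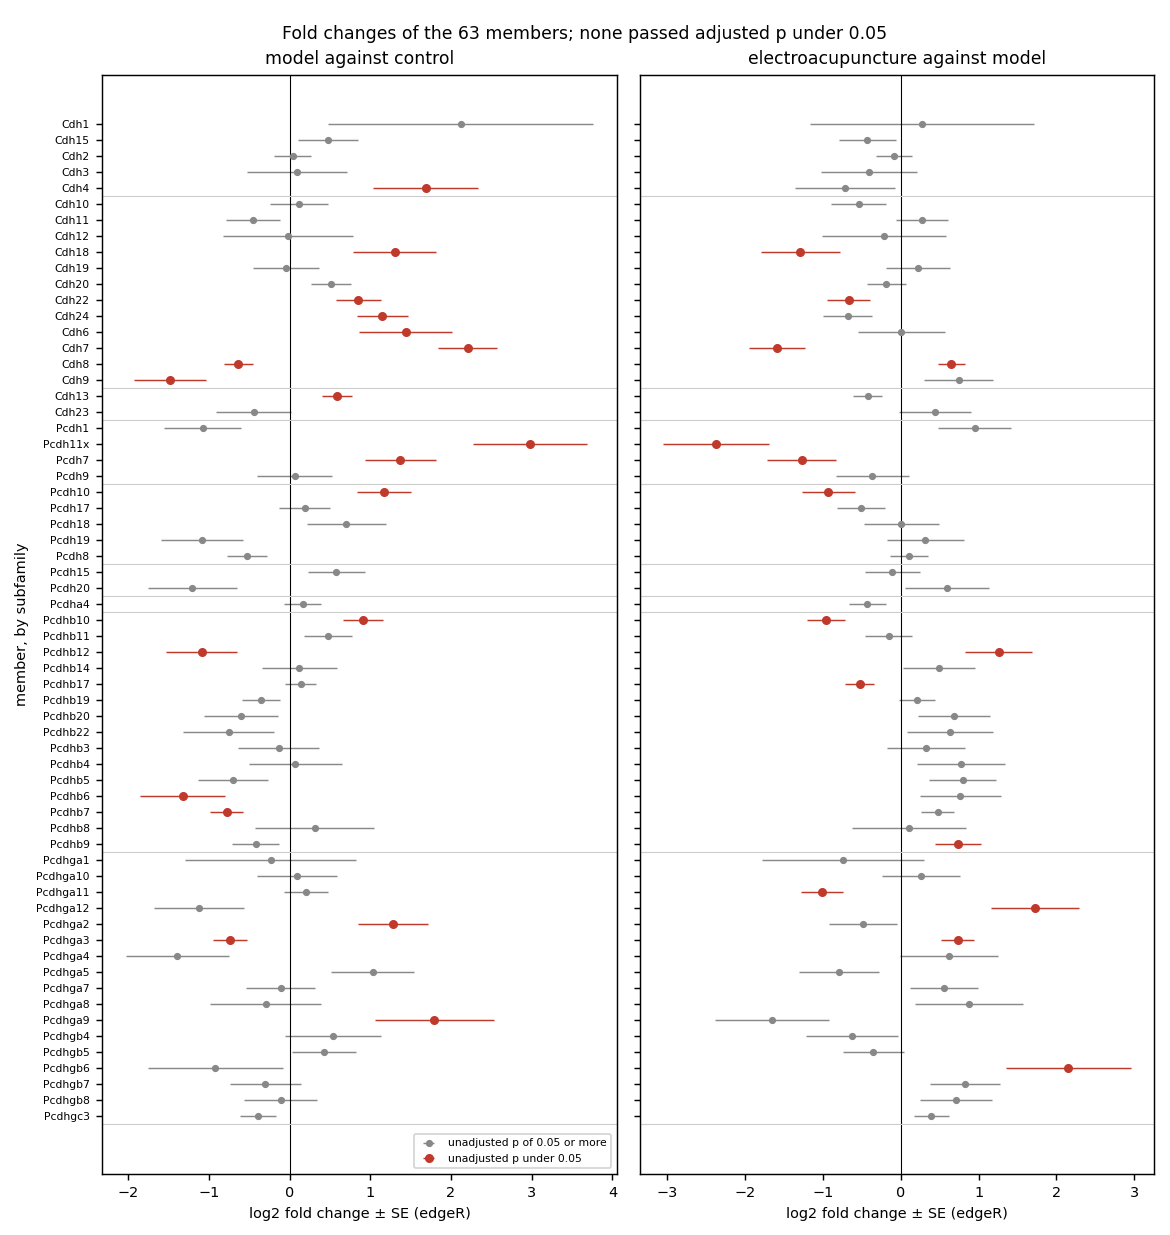
Log2 fold change ± SE of each of the 63 members by subfamily, for model against control (left) and electroacupuncture against model (right); red points have an unadjusted p under 0.05 (19 and 15 members) and none passed after adjustment. Cdh7 and Pcdh11x lie farthest to the right among the red points on the left, at 2.21 and 2.98, and both lie left of 0 on the right.

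Electroacupuncture and control samples were compared last. No member passed the edgeR test, as with 0% of all genes, DESeq2 called 0 members and 0.0054% of genes, and 2 members had an unadjusted p under 0.05. One was higher, against 2.71% of all genes, and 1 lower, against 0.956%. These 2 became 7 (11.1%, against 9.05% of genes) without electroacupuncture C and 4 (6.45%, against 6.71%) without electroacupuncture B. Every electroacupuncture sample lay above every control for 2 members, Cdh6 and Pcdh15, against 5.98% of genes, and below for 5 (Pcdh8, Pcdh19, Pcdhb7, Pcdhb17 and Pcdhga11), against 4.88%. Cdh6, a type II cadherin, measured 1.19, 0.455 and 1.1 CPM among controls and 3.99, 2.04 and 1.58 CPM after electroacupuncture (log2 fold change 1.45, SE 0.54, edgeR adjusted p = 0.843). Pcdhga11 measured 88.1, 146 and 80.4 CPM among controls and so lay above all electroacupuncture samples (-0.82, SE 0.25, adjusted p = 0.843). Pcdhb17, the beta copy with the most reads, measured 18.2, 16.5 and 14.1 CPM among controls and 12.4, 13 and 11.9 CPM after electroacupuncture, below both model samples at 15.7 and 20.1 CPM as well.

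Partner genes of the families were counted from 4 lists, and none of their genes passed the edgeR test in any comparison. Catenins and other adherens junction partners had 1 of 11 genes at an unadjusted p under 0.05 in the model, against 13.8% of all genes. This was Ctnnd2 (delta-2 catenin of dendrites), at 139, 134 and 111 CPM among controls and 159 and 204 CPM in model tissue. Arvcf and Ctnnd1, catenins of the p120 family, had the list's smallest p for electroacupuncture against model (log2 fold change -0.39, SE 0.22) and against control (0.34, SE 0.17). The list's median log2 fold change was 0.06 for model against control and 0.03 for electroacupuncture against model.

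Among 14 genes of cadherin cleavage and protocadherin signalling, 12 were lower in estimate in the model and 4 of them had an unadjusted p under 0.05, against 6.2% of all genes. These were Cyfip1, Abi1 and Wasf1, parts of the WAVE complex that drives actin branching and binds delta-2 protocadherins, and the kinase Ptk2b, which clustered protocadherins inhibit. The other WAVE genes of the list had log2 fold changes of 0.20 (Cyfip2), -0.0025 (Abi2) and -0.38 (Nckap1), each with overlap. Cyfip1 measured 72.4, 77.6 and 81.6 CPM among controls, 53.6 and 43.6 CPM in model tissue and 78, 81.7 and 92.2 CPM after electroacupuncture (log2 fold change for model against control -0.67, SE 0.15, edgeR adjusted p = 0.169, and for electroacupuncture against model 0.79, SE 0.15, adjusted p = 0.140). The model samples lay below all 6 others. Ptk2b measured 803, 618 and 677 CPM among controls, 231 and 324 CPM in model tissue and 270, 659 and 660 CPM after electroacupuncture, again with electroacupuncture A beside the model. Adam10, the protease that sheds N-cadherin, had the smallest p of this list for electroacupuncture against control, with 40.1, 32.9 and 19.6 CPM against 17.7, 19.8 and 22.4 CPM.

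The list of other cadherin superfamily genes also holds Dsp, a plakin that links desmosomal cadherins to the cytoskeleton, and Fjx1, a relative of a fly kinase of Fat cadherins. Of its 16 genes tested, 5 had an unadjusted p under 0.05 for model against control, against 13.8% of all genes. Dsp, Fat4 and Clstn2 were lower and Cdhr1 and Ret higher. For Ret the groups overlapped, at 2.75, 7.5 and 4.95 CPM among controls and 5.31 CPM (model A) and 44.6 CPM (model B). Dsp, which is also in the hippocampal marker list, measured 4.77, 5.8 and 4.12 CPM among controls and 1.77 and 0.821 CPM in model tissue (log2 fold change -1.91, SE 0.48, edgeR adjusted p = 0.181). Fat4, a giant cadherin of planar polarity, measured 4.95, 3.18 and 5.5 CPM among controls, 0.482 and 0.547 CPM in model tissue and 2.26, 10.8 and 2 CPM after electroacupuncture. Cdhr1, a cadherin of photoreceptors, measured 1.1, 1.25 and 1.56 CPM among controls, 14.3 and 3.72 CPM in model tissue and 10.1, 2.38 and 2.32 CPM after electroacupuncture. The last list held 13 genes that act on clustered protocadherin promoters or their chromatin, such as the insulator protein gene Ctcf and cohesin genes. Of these, 1 had an unadjusted p under 0.05 in the model, against 13.8% of all genes. It was Setdb1, a histone methyltransferase, at 62.7, 76 and 62.5 CPM among controls, 50.1 and 53.5 CPM in model tissue and 71.4, 59.2 and 64.3 CPM after electroacupuncture. The cohesin gene Rad21, named after its values were seen, was low in model B alone, at 4.65 CPM. It measured 107, 120 and 112 CPM among controls, 112 CPM in model A and 127, 125 and 122 CPM after electroacupuncture. Stag1, a cohesin subunit, had the smallest p of that list for electroacupuncture against control, with a log2 fold change of 0.46 (SE 0.20, edgeR adjusted p = 0.843).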

How the data were processed

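RNA sequencing of brain tissue gave 1 deposited table of 18804 rows and 11 columns. The authors deposited expected counts (estimated read counts with up to 2 decimals, 70.5% to 72.1% of them whole per column), without normalization. The submitters' processing notes name featureCounts 1.5.0-p3, DESeq2 1.16.1, HISAT2 2.0.5 and StringTie 1.3.3b without saying what each did. Not given in the sources used here are the genome build and how a read matching several copies was treated. Column names give the group only; the 3 columns named sham were taken as the control group, which has 4 labelled samples. The 4 symbols on 2 rows were summed, counts rounded, and repeat columns of a group (median squared difference under 2 times the sampling variance) summed as 1 sample, an inference that the labels, with 4 samples a group, do not give.

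All 8 samples entered 1 edgeR 4.0.16 quasi-likelihood fit in R 4.3.3 (TMM, expression filter by group, robust, two-sided). It tested 15487 genes, and Benjamini-Hochberg adjustment ran over all of them. It had 5 residual degrees of freedom. It was also run on simulated data with less spread than these and larger changes than most members had. That run hence does not show how many true changes the fit would miss here. SEs come from the F statistic. Alternatives included DESeq2 1.42.0. Members, lists and the promoter run were chosen with earlier results of these data known. Named members follow a fixed rule: called members, the 4 smallest p in each direction with a mean of at least 1 CPM, the 10 with the most reads and the top member of each subfamily; others named after their values were seen are marked or summarised.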

Additional observations from a re-analysis of the deposited data

How the results depend on the processing

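No paired analysis was possible because the column numbers could not be tied to labelled samples, and columns counted here as 1 sample carry different numbers. The refits covered 42 fold changes of single members, with up to 15 alternatives each. These were picked for the 4 smallest p in each direction or an unadjusted p under 0.05 in the main edgeR fit of the same data. None changed sign in 626 refits, which that choice favours, so the kept signs do not show how stable the members are in general. Of the refits, 588 kept their side of adjusted p = 0.05 and 38 crossed it. With every column as a separate library edgeR called 9 members for model against control and 9 for electroacupuncture against model, with DESeq2 7 and 4, and with only the 2 groups compared 5 and 0. Fits without 1 sample called 0 to 5 members for model against control and 0 to 2 for electroacupuncture against model, the highest without electroacupuncture A in both. Over all genes, in the same 2 comparisons, separate columns gave 1129 and 1666 calls, DESeq2 786 and 700, and fits without 1 sample 0 to 565 and 0 to 308. For model against control, 294 genes were called with only the 2 groups and 0 with total counts. For electroacupuncture against control, DESeq2 called 1. The list of other superfamily genes (with Dsp and Fjx1) for model against control had 2 calls with separate columns, 3 with DESeq2, 2 with only the 2 groups and 0 to 3 without 1 sample; for electroacupuncture against model 3, 2 and 0 to 1 (separate columns, DESeq2, without 1 sample). Signalling genes had 3, 2 and 0 to 2, and 3, 1 and 0 to 3, in the same order. Promoter choice genes had 0 to 1 without 1 sample in both. The cause was not tested. At these depths genes with a mean under about 1 CPM (Cdh1, Cdh3, Pcdhga4, Pcdhgb4 and Pcdhgb6) rest on few reads, as do the control values of Pcdh11x. No sample-level outlier test applies with 2 or 3 samples a group.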
